A study of Homo sapiens with 4 samples.

Results

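A set of 46 genes of DNA replication and of entry into S phase was followed, out of 61806 genes in the deposited expression table. They were taken by symbol from a fixed list and cover 8 roles: origin licensing with 11 genes, origin firing with 8, the sliding clamp and its loader with 6, polymerases and primase with 7, Okazaki fragment maturation with 2, nucleotide supply with 5, G1/S regulators with 5, and a chromatin and a fork checkpoint gene. Poly(A) RNA had been sequenced from JJ012, a human chondrosarcoma (malignant cartilage tumour) line, and from 143B, a human osteosarcoma line. Both lines were kept detached from the culture surface and were either left untreated (control) or given melatonin at 1 mM for 72 h. Each of the 4 conditions was a single library, so no p-value was possible, and every interval given here covers counting error alone. The columns of treated cells carried the suffix T, which was read as melatonin.

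Eukaryotic cells load the MCM2 to MCM7 helicase on origins in G1 (licensing) and switch it on in S phase, when CDC45, the GINS complex and the CDC7 kinase with its DBF4 subunit join in (firing). PCNA, a ring put on DNA by the RFC clamp loader, then holds the polymerases, while ribonucleotide reductase (RRM1 with RRM2), TYMS, TK1 and DUT supply or guard the nucleotides. Most of these genes are switched on at the G1/S boundary by E2F transcription factors once cyclin E and CDK2 have inactivated the retinoblastoma protein. Fast-growing tumour lines usually carry them at easily measured levels. 143B is a line long used for its lack of thymidine kinase activity, the enzyme that TK1 encodes.

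The promoters of the members were examined first, since a shared E2F site is the sequence the family is known for. RefSeq promoters (GRCh38.p14, 250 bases before to 50 after a gene's start) were matched for 42 of the 46 members. The E2F words searched were TTTCCCGC, TTTCGCGC, TTTGCCGC and TTTGGCGC on both strands. At least 1 of them stood in a promoter of 25 of the 42 members (59.5%), against 3.99% of the 27305 genes of that promoter table. The word CCAAT, the letters bound by NF-Y, was found for 24 of the 42 members (57.1%) and for 39.7% of genes, also on both strands. Of 33 other replication genes matched, 30.3% held an E2F word and 63.6% CCAAT, and of 24 matched G2/M and mitosis genes 8.33% and 75%. TTTGAA, the core of the CHR element known from genes of G2 and mitosis, was found for 3 of the 42 members (7.14%), for 18.2% of genes, for 9.09% of the other replication genes and for 16 of the 24 G2/M and mitosis genes (66.7%). A match is a description of letters and not a proven site.

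The 160 bases upstream of a RefSeq start are shown for 4 members whose values carry the results below. CDT1 and TK1 were lower in JJ012, and PCNA and MCM6 were higher in 143B. TK1 and PCNA each had 2 such starts, and 1 of them is shown. The TK1 window lies wholly inside the gene as counted, which spans 78174091 to 78187233. Capitals mark E2F words and CCAAT words on either strand. The CDT1 and MCM6 promoters lie on chromosomes 16 and 2, those of TK1 and PCNA on chromosomes 17 and 20, and all but CDT1 are on the minus strand.
CDT1, chr16:88803629-88803788: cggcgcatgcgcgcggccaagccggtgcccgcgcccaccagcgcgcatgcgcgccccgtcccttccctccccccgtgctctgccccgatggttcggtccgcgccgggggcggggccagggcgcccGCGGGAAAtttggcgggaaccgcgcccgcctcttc
TK1, chr17:78187053-78187212: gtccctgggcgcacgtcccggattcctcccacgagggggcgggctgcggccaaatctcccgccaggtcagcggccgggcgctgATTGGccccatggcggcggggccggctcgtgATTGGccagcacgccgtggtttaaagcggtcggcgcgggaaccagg
PCNA, chr20:5126623-5126782: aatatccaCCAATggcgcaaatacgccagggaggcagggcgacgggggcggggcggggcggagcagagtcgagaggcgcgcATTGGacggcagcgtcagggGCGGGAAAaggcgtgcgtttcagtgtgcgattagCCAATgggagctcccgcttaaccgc
MCM6, chr2:135876444-135876603: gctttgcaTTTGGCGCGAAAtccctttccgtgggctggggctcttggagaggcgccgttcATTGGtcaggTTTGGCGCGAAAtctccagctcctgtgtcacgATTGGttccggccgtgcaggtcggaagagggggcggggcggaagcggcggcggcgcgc
MCM6 held 4 E2F matches, as 2 copies of a run in which a word on each strand overlaps the other, whereas CDT1 and PCNA held 1 each and TK1 none of these words. Among the 8 members lower in JJ012, 3 held an E2F word (37.5%), and among the 3 higher in 143B, 2 did (66.7%).

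The libraries held 15889564 to 19218343 counts, and 3 counts, the limit that a count of 0 allows, corresponded to 0.156 to 0.189 CPM (counts scaled to the library total). Levels are given as FPKM, counted fragments scaled to exonic length and library total, which allows genes of different length to be compared. Members lay at a median of 2.045 FPKM in untreated and 1.845 in treated JJ012, and at 2.81 and 2.28 FPKM in untreated and treated 143B. At least 1 FPKM was reached by 32, 31, 37 and 35 of the 46 members in the same order, and the least covered member of any library still had 17 counts. Few chondrocyte markers were found in JJ012: SOX9 (15.06 FPKM in the control) and COL11A1 (22.92 FPKM) were present, but COL2A1 had 0 counts, COL9A1 3 and ACAN 4. After melatonin SOX9 was at 6.16 and COL11A1 at 3.24 FPKM, and the 9 chondrocyte markers summed to 39.74 FPKM before and 9.98 FPKM after. Over all genes FPKM summed to 280482 and 231739 in untreated and treated JJ012, and to 215321 and 223998 in 143B. In 143B, RUNX2 stood at 4.28 FPKM in the control while SP7 and IBSP had 0 counts. The 7 osteoblast markers summed to 94.74 FPKM in untreated JJ012, most of it SPP1 (79.39 FPKM) and COL1A1 (10.92 FPKM), and to 6.97 FPKM in untreated 143B. After melatonin COL1A1 was at 0.77 FPKM in JJ012. Mitochondrial genes took 6.78% and 4.35% of counts in untreated and treated JJ012, and 1.63% and 2.46% in 143B. The 6 markers of blood, vessel and epithelial cells summed to 15.24 and 6.29 FPKM in untreated and treated JJ012, and to 4.63 and 4.03 FPKM in 143B. CD3E accounted for most of the JJ012 values (9.73 and 3.28 FPKM), and each of the 6 but CDH5, which had 13 counts in both JJ012 libraries, had less FPKM after melatonin in JJ012. CD3E and CDH5 were at 0 in 143B. The part of these markers and shares in the results below was not tested.

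**Figure D1:**
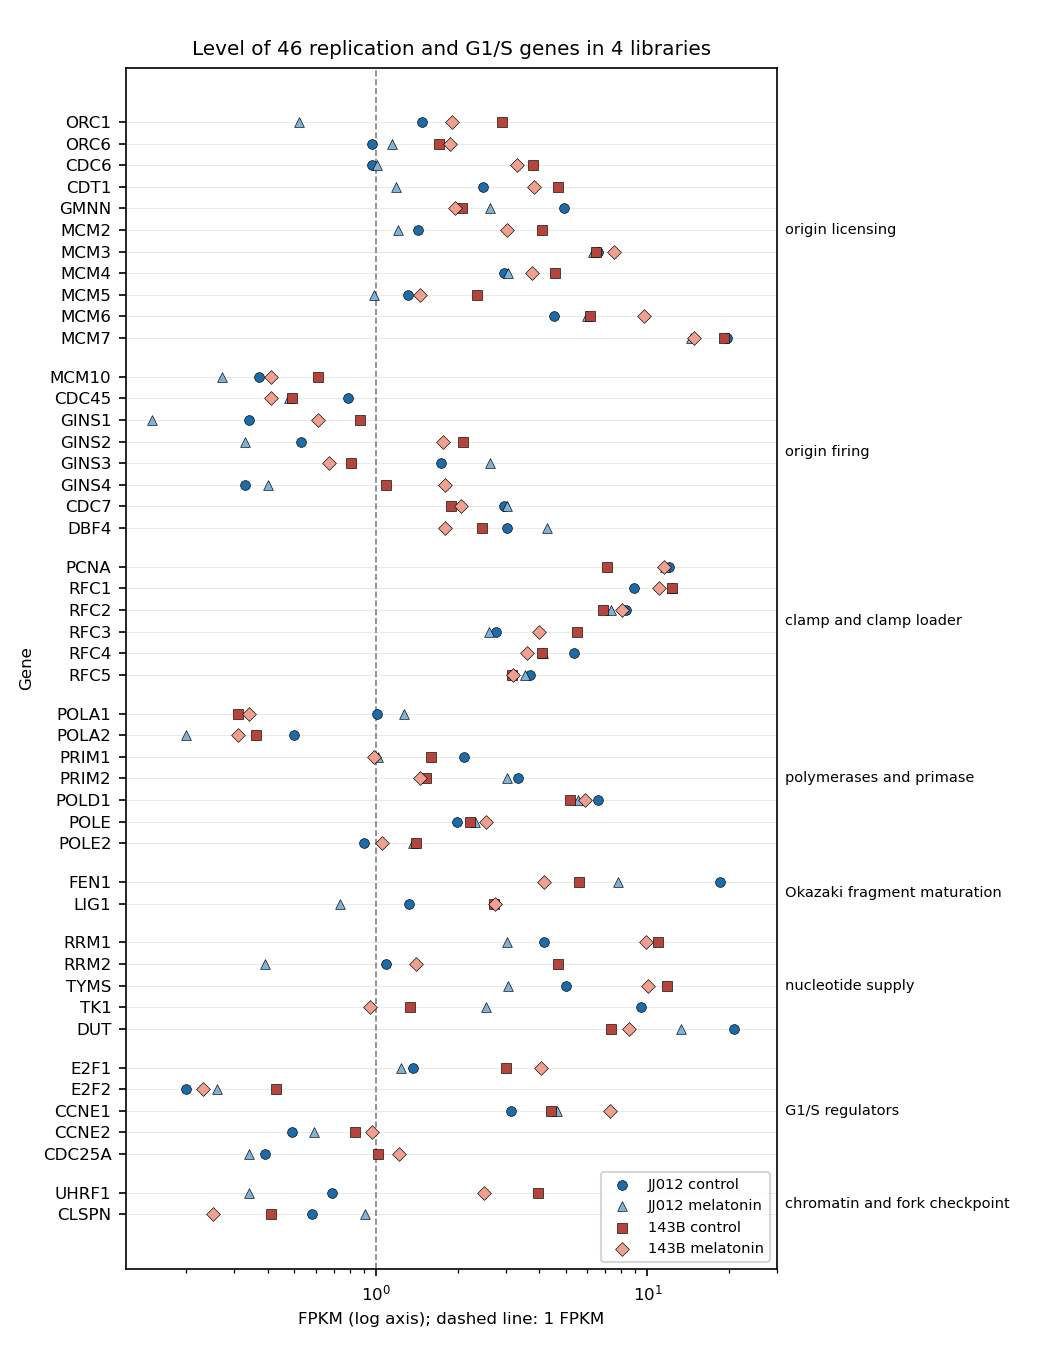
FPKM (log axis) of the 46 members in the 4 libraries, 1 symbol per library, grouped by role, with a dashed line at 1 FPKM. MCM7, DUT, FEN1, PCNA and RFC1 reached the highest levels, while most origin firing genes lay below 1 FPKM in JJ012, and the symbols of RRM2, UHRF1 and TK1 were spread the most widely.

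The next question was what melatonin did to these genes in detached JJ012 cells. A log2 fold change of FPKM with 1 added to both values was called at 0.58 in either direction, the fold threshold of the study. The study also set a limit on the adjusted p-value, which was not applied here for want of replicates. Genes were tested if they had at least 1 FPKM in 1 of the pair of libraries. Of the 46 members 35 passed that filter. After melatonin 8 were lower (ORC1, CDT1, GMNN, PRIM1, FEN1, RRM2, TK1 and DUT) and 0 were higher, with 27 not past the threshold. The share of members lower, 22.9%, lay near the 18.6% of all 15794 tested genes that were lower. The absence of higher members stood beside 19.6% of all tested genes. Among protein-coding genes alone, a background chosen after the data were seen, 16.1% were lower and 17.8% higher. The members' median was -0.10, with 0.01 for all tested genes. In bulk RNA, fewer cells in S phase and less of an mRNA per cell cannot be told apart.

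Nucleotide supply held 3 of the 8 lower members and all 5 of its genes were below 0 in JJ012. Of all tested genes 18.6% were lower and 49.4% below 0. TK1, which salvages thymidine (chromosome 17, 78174091 to 78187233, hg38, minus strand), had 9.50 FPKM (337 counts) in the JJ012 control and 2.55 FPKM (76 counts) after melatonin. This was the largest fall among the tested members of JJ012: its log2 fold change was -1.56, and counts over library totals fell 3.72-fold (log2 ratio -1.90, 95% interval -2.28 to -1.53). RRM2, the reductase subunit made in S phase (chromosome 2, 10120698 to 10211725, plus strand), had 1.09 FPKM (192 counts) and then 0.39 FPKM (58 counts), which is 2.78-fold lower by counts and -0.59 on the scale of FPKM + 1. RRM2 sat just inside the threshold, because adding 1 to such low FPKM values shrinks the change, and its count ratio was -1.48 (-1.93 to -1.04). DUT, which removes dUTP, was the most abundant member of the JJ012 control at 20.92 FPKM (1477 counts) and had 13.25 FPKM (786 counts) after melatonin, a log2 fold change of -0.62. TYMS, which makes thymidylate, sat just outside the threshold at -0.56, with 5.01 FPKM (233 counts) and 3.07 FPKM (120 counts). RRM1, the constitutive reductase subunit, was at 4.15 and 3.03 FPKM, a log2 fold change of -0.35. The 5 genes summed to 40.67 FPKM in the control and 22.29 after melatonin, when all genes summed to 280482 and 231739 FPKM.

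Of the 11 origin licensing genes, 3 were lower in JJ012 (27.3%), beside 18.6% of all tested genes. ORC1, the largest subunit of the origin recognition complex, had 1.48 FPKM (89 counts) in the control and 0.52 FPKM (26 counts) after melatonin. CDT1, which brings the helicase to origins, had 2.47 FPKM (131 counts) and 1.19 FPKM (53 counts). GMNN encodes geminin, the inhibitor of CDT1, and had 4.94 FPKM (235 counts) and 2.63 FPKM (105 counts). Their log2 fold changes were -0.71, -0.66 and -0.71. The ratio of GMNN to CDT1 changed by 0.14 on the log2 scale, with an interval of -0.42 to 0.71. None of MCM2 to MCM7 passed the threshold: their log2 fold changes ran from -0.42 (MCM7, 19.68 and 14.49 FPKM) to 0.34 (MCM6, 4.52 and 5.99 FPKM). CDC6, the other loading factor, had 0.97 and 1.01 FPKM, and ORC2 to ORC5, listed apart from the members, had log2 fold changes between 0.28 and 0.49.

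At the lagging strand FEN1, the nuclease that trims Okazaki fragments (chromosome 11, 61792911 to 61797238, plus strand), had 18.47 FPKM (780 counts) in the JJ012 control and 7.78 FPKM (276 counts) after melatonin. Its log2 fold change was -1.15, the fall next in size to that of TK1, and its count ratio was -1.25 (-1.45 to -1.05). LIG1, the ligase that seals the fragments, had 1.32 FPKM (287 counts) and 0.74 FPKM (135 counts), a log2 fold change of -0.42 that did not reach the threshold although its count ratio was -0.84 (-1.14 to -0.54). PRIM1, the catalytic primase subunit, was lower at 2.11 FPKM (116 counts) and 1.02 FPKM (47 counts), with a log2 fold change of -0.62. The polymerase genes POLD1 and POLE lay at -0.21 and 0.16, and PRIM2, the partner of PRIM1, at -0.10.

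The clamp, its loader and the firing genes that could be tested did not pass the threshold of 0.58 on FPKM + 1 in JJ012. PCNA had 12.05 FPKM (325 counts) in the control and 11.61 FPKM (263 counts) after melatonin, a log2 fold change of -0.05. RFC1, the large subunit of the loader, had 8.92 and 12.31 FPKM (0.42), and RFC4, a small subunit, 5.38 and 4.11 FPKM (-0.32). The ratio of RFC1 to RFC4 within a library, which no scaling of libraries affects, changed by 0.85 (0.57 to 1.13) on the log2 scale. These genes had the highest and the lowest log2 fold change of the 6 clamp and loader genes in JJ012. An interval away from 0 is therefore no independent evidence of a difference between them. The ratio is also not free of exonic length, 6713 bases for RFC1 and 2997 for RFC4, which fold changes in JJ012 followed (below). With the running median over length subtracted, RFC1 lay at 0.30 and RFC4 at -0.14. RFC4 also overlaps EIF4A2 on the opposite strand, with up to 18879 counts. Of the 8 firing genes only GINS3, CDC7 and DBF4 passed the filter. DBF4 had 3.03 FPKM (268 counts) and 4.27 FPKM (317 counts), a log2 fold change of 0.39, and CDC7, the kinase it activates, 2.95 and 3.03 FPKM. CDC45 had 0.79 FPKM (45 counts) and 0.48 FPKM (23 counts) and was not tested. Of the G1/S regulators, E2F1 had 1.37 and 1.24 FPKM (-0.08) and CCNE1, cyclin E1, 3.13 FPKM (148 counts) and 4.63 FPKM (184 counts), a log2 fold change of 0.45. CCNE2 and CDC25A, the phosphatase that activates CDK2, stayed below 1 FPKM in both JJ012 libraries.

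**Figure D2:**
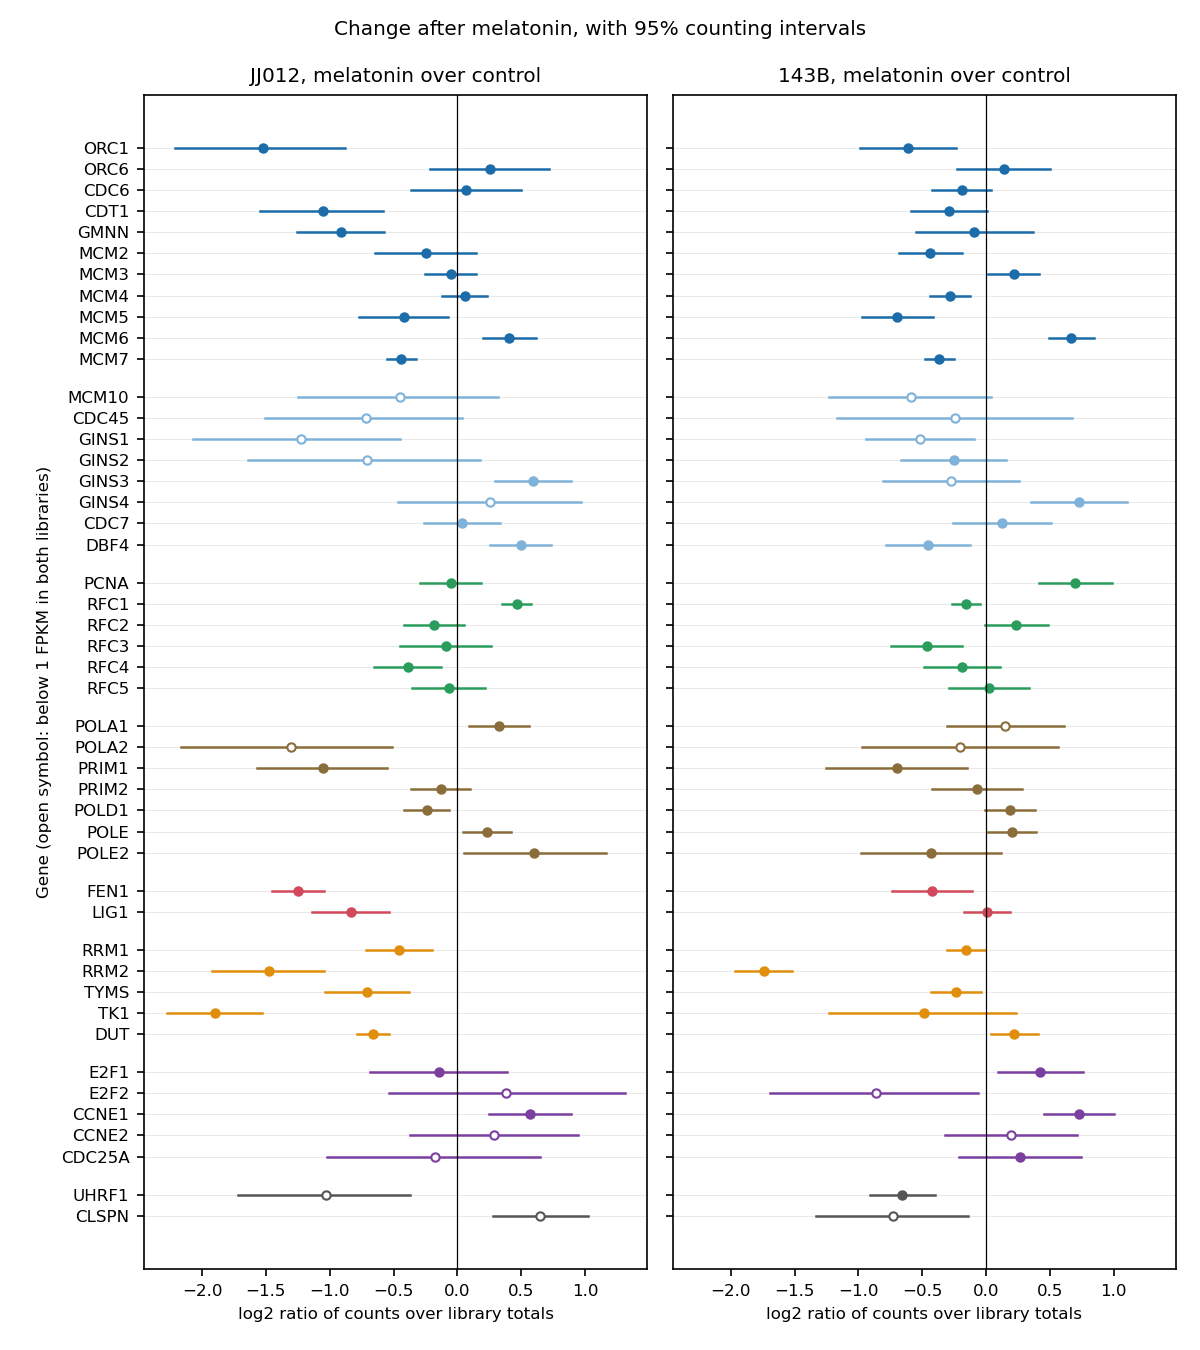
Log2 ratio of counts over library totals, melatonin over control, for the 46 members in JJ012 (left) and 143B (right), with 95% counting intervals as lines, colours for roles and open symbols for members below 1 FPKM in both libraries of a line. TK1, RRM2, ORC1 and FEN1 lie furthest to the left in JJ012 among tested members, whereas RRM2 alone lies beyond -1 in 143B.

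These calls moved with the processing. With values as TPM, in which the length-scaled values of each library add to the same sum, the median of all genes in JJ012 moved to 0.21 and that of the members to 0.07, and 7 members were lower and 7 higher, in place of 8 and 0. The TPM filter let all 46 members in. On the same 35 members, an alternative chosen after the data were seen, TPM gave 7 lower and 6 higher (CCNE1, DBF4, GINS3, MCM6, POLE2 and RFC1), with medians of 0.11 for them and 0.27 for all tested genes. CDT1, FEN1, GMNN, ORC1, PRIM1, RRM2 and TK1 were still lower on that scale. The shares of all genes called on the TPM scale were not computed, so these counts have no background beside them. Fold changes in JJ012 also followed exonic length, with a Spearman correlation of 0.36 over the 35 members and 0.40 over 11534 protein-coding genes, which share their libraries. The 8 lower members had a median exonic length of 2808 bases, against 4309 bases for the 27 others. After subtraction of the running median over length, FEN1, RRM2 and TK1 remained lower, LIG1 joined them, CCNE1 became higher, and ORC1 (-0.52), CDT1 (-0.45), GMNN (-0.50), PRIM1 (-0.41) and DUT (-0.53) were no longer called. FEN1 shares its strand with the overlapping gene FADS2, PRIM1 with NACA, and DUT has 8 pseudogene copies with up to 40 counts, so these values depend on how shared reads were assigned. TK1, CDT1 and GMNN overlap no other gene in the table.

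The same comparison was made in 143B. Of the 46 members 37 passed the filter, 1 was lower (RRM2) and 3 were higher (PCNA, MCM6 and CCNE1), with 33 not past the threshold. Those shares, 2.70% and 8.11%, stood beside 6.65% of all 14135 tested genes lower and 6.09% higher. Among protein-coding genes the shares were 2.6% and 3.48%. The members' median was -0.14, with 0.03 for all tested genes.

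RRM2 had 4.70 FPKM (684 counts) in the 143B control and 1.41 FPKM (221 counts) after melatonin. It was 3.34-fold lower by counts, with a log2 fold change of -1.24 and a count ratio of -1.74 (-1.97 to -1.52), and it was the only member called in both lines. With TMM or median-of-ratios factors RRM2 was not called in JJ012, and then no member was called in both. With a pseudocount of 0.1 FPKM, ORC1, PRIM1 and RRM2 were lower in both lines. On the TPM scale those genes were also lower in both, and CCNE1 and MCM6 were higher in both. The share of all genes called in both lines was not computed. The other reductase subunit, RRM1, had 10.96 FPKM (737 counts) and 9.84 FPKM (715 counts), and TYMS 11.83 FPKM (455 counts) and 10.06 FPKM (418 counts). The ratio of RRM2 to RRM1 changed by -1.59 (-1.85 to -1.32) on the log2 scale in 143B and by -1.02 (-1.51 to -0.53) in JJ012. TK1 was scarce in this line, at 1.33 FPKM (39 counts) in the control and 0.95 FPKM (30 counts) after melatonin, and a change of its size could not be resolved at this depth (count ratio -0.49, -1.23 to 0.23).

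PCNA (chromosome 20, 5114953 to 5126626, minus strand) had 7.09 FPKM (158 counts) in the 143B control and 11.50 FPKM (277 counts) after melatonin, a log2 fold change of 0.63, with counts 1.62-fold higher (count ratio 0.70, 0.41 to 0.99). MCM6 (chromosome 2, 135839626 to 135876443, minus strand) had 6.13 FPKM (403 counts) and 9.75 FPKM (692 counts), a log2 fold change of 0.59 that sat just inside the threshold. CCNE1 (chromosome 19, 29811991 to 29824312, plus strand) had 4.40 FPKM (172 counts) and 7.27 FPKM (307 counts), a log2 fold change of 0.61. MCM6 and CCNE1 overlap no other gene, and the PCNA pseudogenes held at most 1 count. MCM6 was the only helicase gene called. MCM2 had 4.10 FPKM (307 counts) and 3.03 FPKM (245 counts) and MCM5 2.35 and 1.45 FPKM, while MCM3 had 6.47 FPKM (375 counts) and 7.53 FPKM (471 counts), a log2 fold change of 0.19. The ratio of MCM6 to MCM2 changed by 1.11 (0.81 to 1.41) in 143B and by 0.65 (0.22 to 1.09) in JJ012. All 3 higher members lay at 0.54 once the running median over length was subtracted, so none was then called. With fold changes centred on the median gene, or with median-of-ratios factors, only CCNE1 and PCNA were higher. On the TPM scale the 3 were still higher, and the lower members became 5 (MCM5, ORC1, PRIM1, RRM2 and UHRF1). Shares of all genes called under these settings were not computed.

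The other 143B members were short of the threshold. UHRF1, which couples replication to DNA methylation, lay just outside the threshold at -0.50, with 3.94 FPKM (322 counts) and 2.50 FPKM (221 counts). CDT1 had 4.67 and 3.82 FPKM, ORC1 2.90 and 1.90 FPKM, PRIM1 1.59 and 0.98 FPKM, and CDC6 3.78 and 3.31 FPKM, with log2 fold changes between -0.43 and -0.15. RFC3, a small loader subunit, had 5.48 and 3.97 FPKM (-0.38). E2F1 had 3.02 FPKM (129 counts) and 4.05 FPKM (187 counts), a log2 fold change of 0.33, and GINS4 had 1.09 and 1.80 FPKM (0.42). CDC25A was at 1.02 and 1.22 FPKM, and POLA1, the catalytic subunit of polymerase alpha, at 0.31 and 0.34 FPKM. All 3 tested G1/S regulators were thus above 0 in 143B, when 7571 of all 14135 tested genes were, and only CCNE1 was called. The other G1/S regulators lay below 1 FPKM in 143B and were not tested. E2F2 had a count ratio of -0.86 (-1.69 to -0.06) and CCNE2 of 0.20 (-0.32 to 0.72).

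By counts alone, with a ratio of at least 0.58 and an interval that excluded 0, the tested members called were 10 lower and 2 higher in JJ012 and 5 lower and 4 higher in 143B. All tested genes gave 21.4% lower and 21.9% higher in JJ012, and 6.47% and 7.94% in 143B. The members added were LIG1 and TYMS lower and GINS3 and POLE2 higher in JJ012, and in 143B MCM5, ORC1, PRIM1 and UHRF1 lower and GINS4 higher. POLE2, a subunit of polymerase epsilon, had 0.90 FPKM (51 counts) and 1.37 FPKM (65 counts) in JJ012, so its interval was wide (0.05 to 1.16). ORC1, PRIM1 and RRM2 were lower in both lines by this rule. By its counts UHRF1 was too, but it lay below 1 FPKM in JJ012 (0.69 and 0.34) and was not tested there. The share of all genes lower in both lines was not computed.

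The responses of the lines were then set side by side, as the difference of their count ratios (JJ012 minus 143B). The interval of that difference lay below 0 for 13 members, above 0 for 7 and included 0 for 26. Among the 33 members tested in both lines it lay below 0 for 12 and above 0 for 4, when 33.1% of the 11822 genes tested in both lines lay below 0 and 35.9% above. The members further down in JJ012 than in 143B included TK1 (-1.41, -2.18 to -0.63), ORC1 (-0.91, -1.64 to -0.19), DUT (-0.88, -1.10 to -0.66), LIG1 (-0.85, -1.19 to -0.50), FEN1 (-0.82, -1.19 to -0.46) and GMNN (-0.82, -1.37 to -0.27). LIG1 had 2.72 FPKM in the 143B control and 2.74 after melatonin, GMNN 2.08 and 1.95, FEN1 5.58 and 4.16, and DUT 7.31 and 8.53. PCNA differed by -0.75 (-1.12 to -0.39), with a rise in 143B and almost the same level in both JJ012 libraries. On the other side were DBF4 (0.95, 0.55 to 1.34), RFC1 (0.62, 0.46 to 0.78) and POLE2 (1.03, 0.29 to 1.77), and CLSPN, claspin of the fork checkpoint, at 1.38 (0.71 to 2.05) with less than 1 FPKM in every library. Of the 33 members tested in both lines, 15 were below 0 in both, 5 above 0 in both, 8 below 0 only in JJ012 and 5 only in 143B. Of all genes tested in both, 20.2% were below 0 in both, 30.4% above 0 in both, 25.1% below 0 in JJ012 and above in 143B, and 23.8% the reverse. Between the lines their fold changes correlated with Pearson's r 0.41 and Spearman's rho 0.44, over genes that share the libraries of each line and are not independent, against a rho of 0.0078 over 9811 protein-coding genes.

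**Figure D3:**
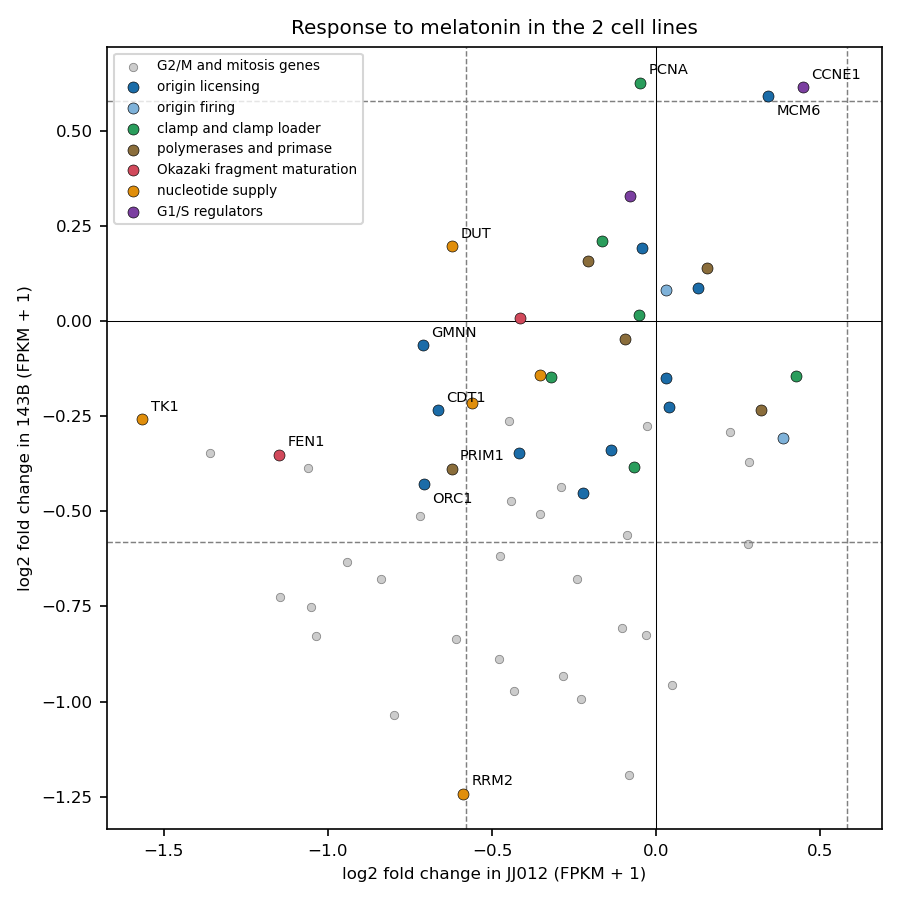
Log2 fold change (FPKM + 1) of the 33 members tested in both lines, JJ012 on the x axis and 143B on the y axis, coloured by role, with G2/M and mitosis genes in grey and dashed lines at 0.58 in either direction. RRM2 is the only member past the threshold in both, the other lower members of JJ012 sit near or above -0.43 in 143B, and PCNA, MCM6 and CCNE1 lie at the top.

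Genes of the same pathway outside the members were counted in the same way. Of 44 other replication genes, 37 were tested in JJ012, with 6 lower and 1 higher and a median of -0.10. In 143B 40 were tested, with 0 lower and 2 higher and a median of 0.02. In JJ012 16.2% were lower and 2.70% higher, beside 18.6% and 19.6% of all tested genes. In 143B the shares were 0% and 5%, beside 6.65% and 6.09% of all tested genes. RECQL4, a helicase that acts at origin firing, had 5.03 and 1.82 FPKM in JJ012 and 2.16 and 2.45 FPKM in 143B. RPA3, the smallest subunit of the single-strand binding protein, had 9.31 and 5.04 FPKM in JJ012 and 3.49 and 4.45 FPKM in 143B. RNASEH2C, a subunit of the ribonuclease that clears ribonucleotides from DNA, had 8.97 and 4.92 FPKM in JJ012 and 2.06 and 3.91 FPKM in 143B, and so was called lower in the first and higher in the second. RPA2 was also called higher in 143B (13.34 and 20.97 FPKM), and CDCA7 was the gene called higher in JJ012 (0.81 and 2.26 FPKM).

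Of the E2F and pocket protein regulators, 20 were tested in JJ012, with 1 lower and 4 higher and a median of 0.38. The 20% higher was close to the 19.6% of all tested genes. The higher ones were E2F7, a repressor of E2F targets (6.39 FPKM, 773 counts, and 20.84 FPKM, 2117 counts), CDK6 (2.40 and 6.34 FPKM), E2F3 (4.25 and 9.67 FPKM) and E2F5, and the lower was CCND3, cyclin D3 (7.96 and 3.25 FPKM). In 143B 21 were tested and only CCNA2, cyclin A2, was called, as lower (4.76%, beside 6.65% of all tested genes). It had 6.80 FPKM (297 counts) and 2.93 FPKM (138 counts) there and 5.21 and 4.06 FPKM in JJ012. Cyclin E1 and cyclin A2 act in turn with CDK2, and between these 2 genes, each called in 143B, the ratio of CCNE1 to CCNA2 changed by 1.94 (1.54 to 2.34) in 143B and by 0.93 (0.51 to 1.34) in JJ012. CDK2 itself had 9.68 and 7.82 FPKM in 143B and 8.02 and 7.08 FPKM in JJ012. RB1, the retinoblastoma gene, had 9.83 and 15.04 FPKM in JJ012 (0.57) and 13.47 and 10.59 FPKM in 143B (-0.32), both short of the threshold. Of 7 CDK inhibitor genes, 4 were tested in JJ012 and 5 in 143B, and CDKN2A and CDKN2B had 0 counts in every library. CDKN2C was lower in JJ012 (11.21 and 2.69 FPKM), 25% of those tested beside 18.6% of all tested genes. CDKN1C was lower in 143B (6.07 and 3.64 FPKM), 20% beside 6.65%. None was higher in either line. CDKN1A, which encodes p21, had 55.11 and 50.41 FPKM in JJ012 and 94.30 and 107.14 FPKM in 143B.

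Genes of the later cell cycle were set beside the members. Of 30 G2/M and mitosis genes, 11 of the 30 tested were lower and 0 higher in JJ012 (36.7%, median -0.44). In 143B 18 of 29 were lower and 0 higher (62.1%, median -0.68). Of all tested genes 18.6% were lower and 19.6% higher in JJ012, and 6.65% and 6.09% in 143B. In 143B TOP2A, a topoisomerase of late S phase and mitosis, had 12.18 FPKM (1234 counts) and 4.76 FPKM (521 counts), and MKI67 6.40 and 2.81 FPKM, while in JJ012 they had 10.29 and 9.67 FPKM and 1.73 and 1.82 FPKM. MYBL2, which drives many of these genes, had 8.37 and 3.57 FPKM in 143B and 2.06 and 0.76 FPKM in JJ012. BIRC5 (3.90 and 0.91 FPKM), KIF20A (3.38 and 0.98 FPKM) and PTTG1 (21.68 and 9.88 FPKM) had the largest falls of the list in JJ012. The summed FPKM of the list was 211.24 in the 143B control and 121.89 after melatonin, when the members' sum was 178.29 and 170.91. In JJ012 the sums were 166.35 and 112.03 for the list, and 182.19 and 145.48 for the members. The FPKM of all genes itself summed to 280482 and 231739 in untreated and treated JJ012, and to 215321 and 223998 in 143B.

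**Figure D4:**
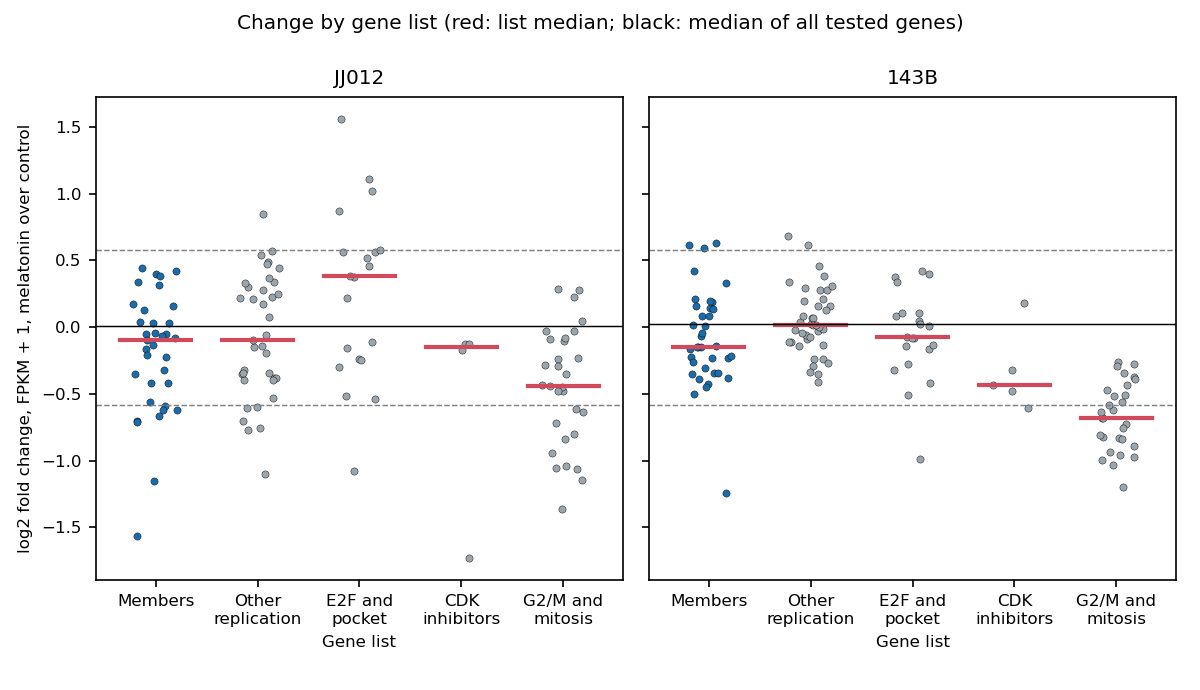
Log2 fold change (FPKM + 1, melatonin over control) of each tested gene in 5 lists, JJ012 left and 143B right, with red bars for list medians, a black line for the median of all tested genes and dashed lines at 0.58 in either direction. The members centre at -0.10 and -0.14, whereas the G2/M and mitosis genes centre at -0.44 in JJ012 and -0.68 in 143B.

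The untreated lines, finally, were compared with each other, which uses the control libraries of the comparisons above. Of the 46 members 39 were tested, 13 were lower in JJ012 than in 143B and 8 higher, when 27.4% of all 16929 tested genes were lower and 41.3% higher. The median was -0.37 for the members and 0.29 for all tested genes. With fold changes centred on the median gene the split became 21 lower and 4 higher, and on the TPM scale 25 lower and 7 higher of 46, or 21 and 7 of the same 39. Among the 14 members with at least 5 FPKM it was 3 lower and 4 higher, with a median of 0.14 beside 0.23 for all genes so filtered. The members' median was -0.65 when centred, beside 0 for all tested genes, and -0.80 on the TPM scale, beside 0.04. Shares of all genes called under these settings were not computed. Nucleotide supply was divided, with each of its 5 genes called. TK1 was higher in JJ012 by a log2 fold change of 2.17 (9.50 and 1.33 FPKM in JJ012 and 143B) and DUT by 1.40 (20.92 and 7.31 FPKM). RRM2 (-1.45, 1.09 and 4.70 FPKM), RRM1 (-1.22, 4.15 and 10.96 FPKM) and TYMS (-1.09, 5.01 and 11.83 FPKM) were lower. UHRF1 (-1.55, 0.69 and 3.94 FPKM) and CDC6 (-1.28, 0.97 and 3.78 FPKM) completed the 5 largest differences in the lower direction. FEN1 (1.57, 18.47 and 5.58 FPKM), GMNN (0.95, 4.94 and 2.08 FPKM) and PRIM2 (0.78, 3.33 and 1.53 FPKM) were next to TK1 and DUT in the higher direction. MCM7, the most abundant member of the 143B control, had 19.68 and 19.20 FPKM in the untreated lines and MCM3 6.55 and 6.47 FPKM.

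**Figure D5:**
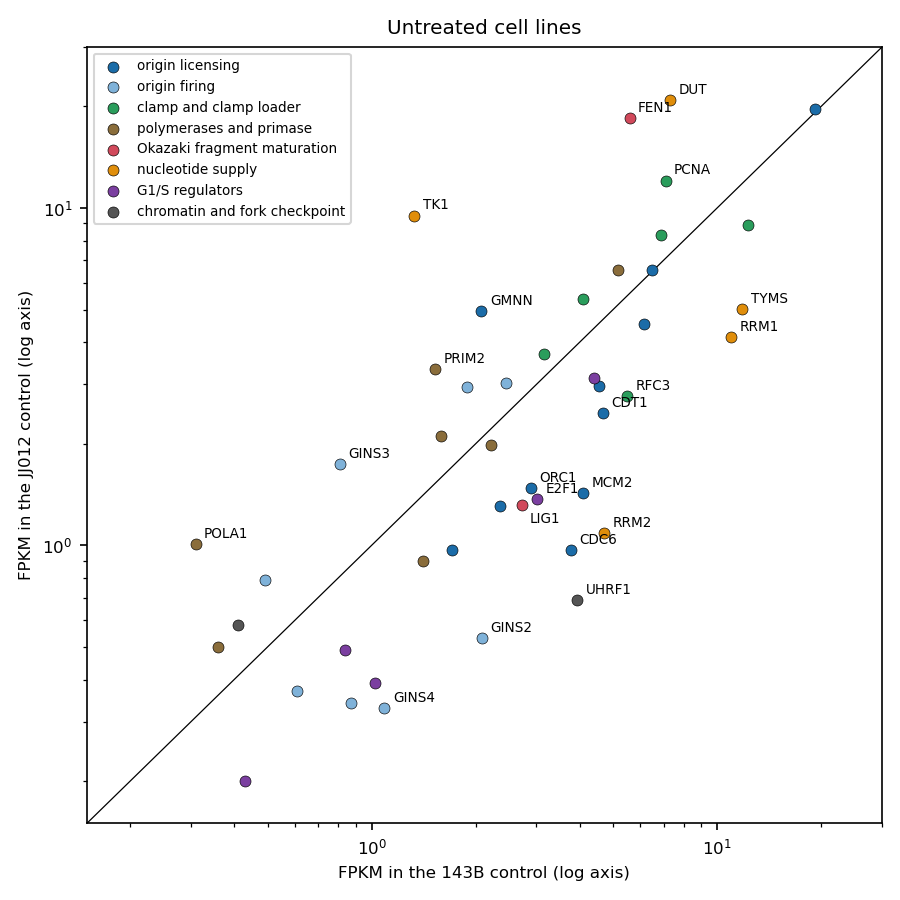
FPKM of the 46 members in the untreated 143B library (x axis) and the untreated JJ012 library (y axis), both on log axes, coloured by role, with the line of equal levels and names for called members. TK1, FEN1 and DUT lie above the line, and RRM1, RRM2, TYMS, UHRF1 and CDC6 below it.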

How the data were processed

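The authors deposited 1 table for the 4 libraries with a read count and an FPKM value per gene, exonic length and gene positions. The submitters' processing notes name cutadapt 1.9.1, HISAT2 2.2.1, HTSeq 0.6.1, DESeq2 and build hg38. The annotation release and strand setting were not given in the sources used here. Recomputing the deposited FPKM from the deposited counts, length and library totals gave 100% of values within 0.005. With 1 library per condition no test was run, and whether library preparation differed between conditions cannot be told apart from treatment. Log2 fold changes used FPKM + 1, a filter of 1 FPKM and a threshold of 0.58. Count ratios carry exact Clopper-Pearson 95% intervals, and differences of responses Poisson intervals. On simulated Poisson counts 94.5% and 95.5% of intervals held the true ratio in JJ012 and 143B. The simulation drew the same counting error that the intervals assume, for well-covered genes given a known change. It therefore could not test variation between libraries or members with few counts. Alternatives were TPM, CPM, TMM factors (edgeR 4.0.16), median-of-ratios factors, other pseudocounts, filters and thresholds, and subtraction of the running median over length. Python 3.11.15, scipy 1.17.1 and pandas 2.3.3 were used. The members and lists were chosen with earlier results of these data known. Members were named if they had 1 of the 8 largest changes in a line, were called in both lines or were among 24 leading their roles. The 5 largest differences in each direction between untreated lines were also named. Of each other list, genes among the largest rises and falls were named, with a few others. For some named genes, values are not printed for every library. Of the members, 29 overlap another gene and 9 have pseudogene copies in the table. Promoter letters were read from RefSeq sequences, and sequence of members without an entry was not used here.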

Additional observations from a re-analysis of the deposited data

Results flagged for a closer look

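In all, 4 members had counting intervals on opposite sides of 0 in the lines. The difference between the lines was not tested, since each condition was a single library. The share of all genes with such intervals was not computed. By the sign of the log2 fold change alone, 25.1% of genes tested in both lines were below 0 in JJ012 and above in 143B. The reverse held for 23.8%. DBF4 had a log2 count ratio of 0.49 in JJ012 and -0.46 in 143B, a difference of 0.949. It overlaps SLC25A40 on the opposite strand, with up to 962 counts, and the strand setting of the counting was not given. For RFC1 the ratios were 0.46 and -0.16, a difference of 0.622. For DUT they were -0.66 and 0.22, a difference of -0.881, and the 8 pseudogene copies of this gene held at most 40 counts. CLSPN had 0.65 and -0.73, a difference of 1.38, at 41 to 141 counts per library. All 4 intervals cover counting error alone.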

How the results depend on the processing

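Of the members in JJ012, 8 were lower, and the number was 3 with a filter of 5 FPKM, 13 with CPM (10 on the genes tested with FPKM, the rest having passed only the CPM filter), 5 with TMM factors, 2 at a threshold of 1 and 4 after the running median over length was subtracted. None was higher, but 7 were with TPM, 2 by the counting interval and 1 after the length correction, and the median of -0.10 became 0.067 with TPM. On the genes tested with FPKM, an alternative added after the data were seen, TPM gave 6 higher and a median of 0.11 in JJ012, 5 lower in 143B, and 21 lower and a median of -0.82 between untreated lines, and CPM gave 3 lower in 143B. In 143B the 1 lower member became 5 with a pseudocount of 0.1, TPM or the counting interval, 3 with CPM and 0 with the 5 FPKM filter, which also took the median from -0.14 to 0.16. The 3 higher members became 0 at a threshold of 1 and 0 after the length correction. Between untreated lines the 13 lower members became 3 (5 FPKM filter), 21 (centred on the median gene), 25 (TPM), 20 (CPM, TMM and median-of-ratios factors) and 7 (threshold of 1). The 8 higher became 4 (5 FPKM filter, centring, TMM, median-of-ratios and length correction) and 3 (threshold of 1), and the median of -0.37 became -0.65 when centred, -0.80 with TPM and 0.14 with the 5 FPKM filter. Among the higher members of 143B, MCM6 was not called when centred or with median-of-ratios factors, and RRM2 was not called in JJ012 with TMM or median-of-ratios factors. The median of nucleotide supply between untreated lines, -1.09, turned to 0.15 with the 5 FPKM filter, which left fewer genes. The cause of the other shifts was not tested. Except for the counting interval, the shares of all genes called under these alternatives were not computed. No paired analysis was possible because each condition had 1 library, and for the same reason no library could be left out. Depth limits the members with few counts most, down to 17 in a library.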
